A study of Homo sapiens with 12 samples.

Results

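The genes described here are named after the eukaryotic translation initiation factors, the proteins that bring a messenger RNA, the initiator tRNA and the ribosomal subunits together at a start codon. They were chosen by name alone, as every array probe annotated to a symbol that begins with EIF and a number from 1 to 6. Some of them encode other proteins, such as the eIF4E-binding proteins, EIF4A3 and EIF5A. All are counted below as initiation factor genes. The 4 probes for the EIF2AK kinases and the 1 probe for a pseudogene were left out. This gave 49 genes with 72 probes, out of 18852 genes named by a probe on the array. A probe was kept if its signal was detected (detection p under 0.01) on at least 2 arrays, and each gene was then represented by its brightest kept probe. By this rule 44 of the 49 genes were measured, among 10469 genes tested in all. No probe was kept for EIF1AY, EIF4E1B, EIF5A2, EIF5AL1 and EIF3J-DT, the last of which is a noncoding RNA encoded next to EIF3J and not a factor. EIF2B3, EIF3CL and EIF4G3 were not analysed here.

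RNA came from AGS cells, an established line from a human gastric adenocarcinoma. The cells had been cultured with mycophenolic acid (MPA), an immunosuppressive drug that blocks IMPDH, the rate-limiting enzyme of guanine nucleotide synthesis. There were 4 arrays of control cells at 0 h and 2 arrays for each of 4 times with the drug at 2 µg/ml, which were 12, 24, 48 and 72 h. All groups are of this single cell line, and the labels name no genetic change. Replicates are numbered in the labels but not described as separate cultures, so the p-values below measure a spread that may be technical. Control cells cultured for 12 to 72 h without MPA are not among the samples, and time in culture and time with the drug cannot be told apart. In bulk RNA of this kind, fewer cells with a transcript and less transcript per cell cannot be told apart either.

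Initiation runs through a fixed order of factors. The trimeric GTPase eIF2 carries the initiator tRNA to the small ribosomal subunit, where eIF1, eIF1A, eIF5 and the large scaffold eIF3 bind. The eIF4F complex joins them to the mRNA, with eIF4E on the cap, eIF4G as the scaffold and eIF4A as the RNA helicase. At the start codon eIF5 triggers GTP hydrolysis by eIF2, eIF5B joins the large subunit, and eIF2B reloads eIF2 with GTP. The step is held back when eIF2 is phosphorylated, which turns it into an inhibitor of eIF2B, or when eIF4E-binding proteins take eIF4E away from eIF4G.

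RefSeq promoters (build GRCh38.p14) were at hand for 37 of the 44 measured genes, and 2 sequence features known from genes of the translation machinery were looked up in them. The first is the E-box CACGTG, a palindrome that reads the same on both strands and is the binding motif of MYC and related factors. It lay within the 250 bases before an annotated start in 9 of the 37 genes (24.3%), against 7.73% of 27305 genes. These were EIF1B, EIF3F, EIF3K, EIF4A3, EIF4B, EIF4E, EIF4EBP3, EIF4G1 and EIF4H. The 27305 are all genes with a promoter entry, whether or not they were measured here. The share among the 10469 genes tested is not given here, so the 2 shares come from unlike sets. The matches of EIF4E, EIF4G1 and EIF4B are shown because their signals fell with MPA, and that of EIF4A3 because its signal fell at no time against 0 h. Capitals mark the E-box, and each sequence is given 5′ to 3′ on the strand of its gene.
EIF4E, chr4:98929341-98929370, minus strand: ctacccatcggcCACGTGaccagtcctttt
EIF4E, chr4:98929188-98929217, minus strand: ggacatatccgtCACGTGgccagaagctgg
EIF4G1, chr3:184314450-184314479, plus strand: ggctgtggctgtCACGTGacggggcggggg
EIF4G1, chr3:184314527-184314556, plus strand: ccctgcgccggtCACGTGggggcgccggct
EIF4B, chr12:53006422-53006451, plus strand: gcccgctataatCACGTGattgcctcatcc
EIF4A3, chr17:80147232-80147261, minus strand: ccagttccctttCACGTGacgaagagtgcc

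The second feature is a pyrimidine start, here a C at the annotated start followed by at least 4 pyrimidines, as in the terminal oligopyrimidine tract of mRNAs whose translation follows mTOR activity. It was found in 9 of the 37 genes (24.3%), against 5.14% of the same 27305 genes. These were EIF2A, EIF2D, EIF2S3, EIF3D, EIF3F, EIF3K, EIF3M, EIF4A2 and EIF4B. The starts of 1 gene that rose with MPA, of 2 that fell and of 1 that passed the test at no time are shown, with 15 bases on each side of the start and the run of pyrimidines in capitals.
EIF2D, chr1:206612451-206612480, minus strand: ggtttccagccgggcCCTTTTCgcggccgg
EIF4B, chr12:53006441-53006470, plus strand: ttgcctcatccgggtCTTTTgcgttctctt
EIF3F, chr11:7987322-7987351, plus strand: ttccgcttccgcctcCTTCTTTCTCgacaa
EIF3D, chr22:36529152-36529181, minus strand: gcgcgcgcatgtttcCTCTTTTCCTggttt

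The arrays gave 14077 to 15764 detected probes each, and 55 to 57 of the kept initiation factor probes were detected on each. Of the 44 genes, 43 were detected on all 12 arrays, and the exception was EIF1AD. Between arrays of the same group the log2 signals of the 44 genes differed with an SD of 0.192 to 0.283 over 10 pairs, against 0.252 to 0.318 for all genes. The epithelial markers KRT8, KRT19 and EPCAM were detected on all 12 arrays, whereas both KRT18 probes were detected on none. Of the other marker lists, LYZ was detected on all 12 arrays (log2 signal 11.26 to 12.21), COL1A1 on 7, CD14 on 5 and PECAM1 on 3, and PTPRC, CD3E, COL1A2, COL3A1, DCN, LUM, VWF, CDH5 and KDR on none.

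To ask how the initiation factor genes changed with MPA, each time was compared with 0 h by limma, with Benjamini-Hochberg adjusted p-values (10469 genes in each comparison) and a threshold of 0.05. These 4 comparisons share the same 4 arrays of 0 h. At any time, 22 of the 44 genes fell and 4 rose (EIF1, EIF2D, EIF2S2 and EIF4E3), 18 passed the test at no time, and no gene fell at one time and rose at another. Over all genes, 37.7% fell at some time and 33.9% rose. No initiation factor gene passed the test with a change of at least 2-fold, whereas 16.5% of all genes did. EIF5, EIF3C and EIF4G1 fell at all 4 times, as did 6.91% of all genes. The call of EIF3C at 12 h was kept in only 5 of 23 alternative settings. At that time the mean of the EIF5 probes gave -0.19 and a second EIF4G1 probe -0.08, neither past the threshold.

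At 12 h, 2 of the 44 genes rose and 9 fell, and over all genes 16.4% rose and 17.9% fell. At 24 h, 2 rose and 14 fell, with 20.4% of all genes higher and 21.3% lower. At 48 h, 2 rose and 13 fell, with 20.7% of all genes higher and 22.8% lower. The share of initiation factor genes that rose, 4.55% at each of these times, was thus below that of all genes, and the share that fell was 20.5%, 31.8% and 29.5%. At 72 h, 3 rose and 11 fell (6.82% and 25%), with 21% of all genes higher and 21.4% lower. The median log2 fold change of the 44 genes was -0.09, -0.20, -0.21 and -0.22 at 12, 24, 48 and 72 h, against -0.01, -0.03, -0.04 and -0.02 for all genes.

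**Figure D1:**
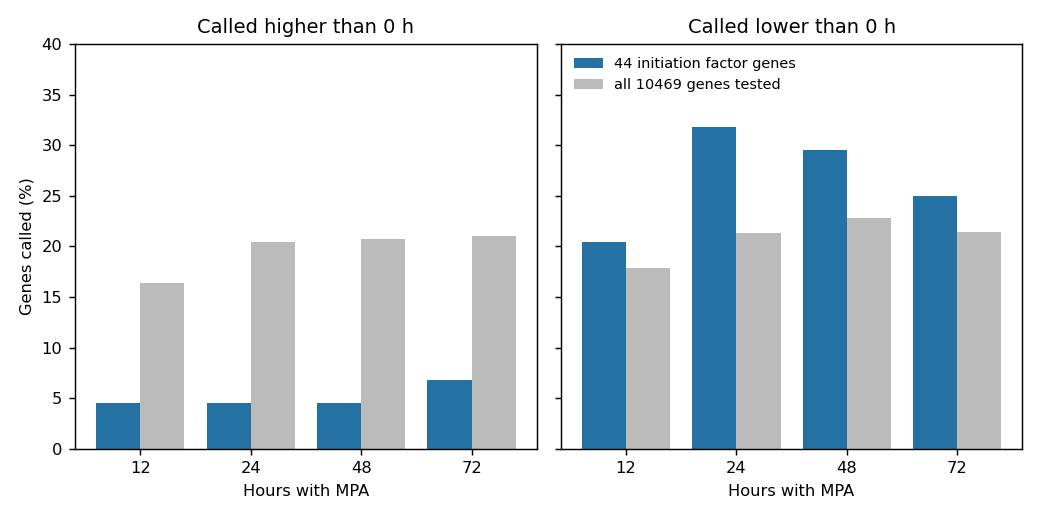
Share of genes (%) called higher (left) and lower (right) than 0 h by limma at each time with MPA, for the 44 initiation factor genes (blue) and all 10469 genes tested (grey). The blue bars for higher genes stand between 4.55% and 6.82%, below the grey bars of 16.4% to 21%. With arrays scaled to a common median of all probes no initiation factor gene was called higher. With arrays scaled on the genes tested alone, 1, 2, 1 and 3 were.

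These counts depended on how the arrays were brought to a common scale. When medians were set equal instead of whole distributions (arrays scaled to a common median), 0 genes were higher at every time and 4, 12, 26 and 27 were lower at 12, 24, 48 and 72 h. That scaling also moved the median of all genes to 0.01, -0.14, -0.31 and -0.32. Relative to it, the median of the 44 genes stood at -0.12, -0.22, -0.28 and -0.26, against -0.08, -0.17, -0.17 and -0.20 after quantile normalization. The common median was taken over all 48803 probes, most of them not detected. With arrays scaled on the genes tested alone, 1, 2, 1 and 3 genes were higher and 9, 15, 16 and 18 lower. The share of all genes called under these scalings is not given here. With the replicate number as a block, 9, 8 and 8 genes were called at 24, 48 and 72 h.

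**Figure D2:**
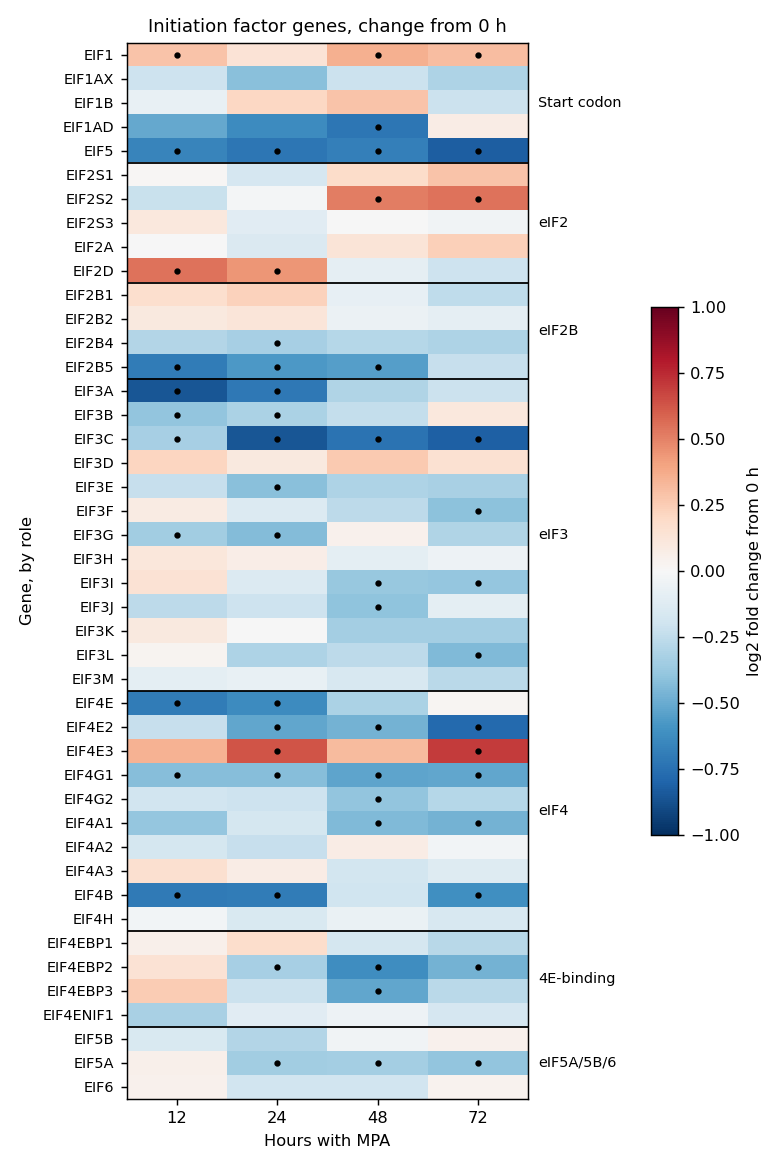
Log2 fold change from 0 h (colour, blue lower and red higher) of each of the 44 genes (rows, grouped by role) after 12, 24, 48 and 72 h with MPA (columns), with a dot where the limma adjusted p was under 0.05. EIF5, EIF3C and EIF4G1 carry dots at all 4 times, and the changes of EIF1 at 48 and 72 h change sign when arrays are scaled to a common median. The call of EIF3C at 12 h was kept in only 5 of 23 alternative settings.

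Among the 5 measured genes for start codon selection and scanning, EIF5 fell throughout and EIF1 rose. EIF5 encodes the protein that makes eIF2 hydrolyse its GTP at the start codon. EIF5 had a normalised log2 signal of 10.84, 10.40, 10.66 and 10.58 on the arrays of 0 h. With MPA, EIF5 was at 9.91 and 10.02 (12 h), 9.83 and 9.96 (24 h), 10.02 and 9.85 (48 h) and 9.82 and 9.76 (72 h). Every treated array was below every array of 0 h. Against 0 h, EIF5 gave log2 fold changes of -0.66 ± 0.13 (SE) at 12 h, -0.73 at 24 h, -0.68 at 48 h and -0.83 at 72 h (limma adjusted p = 0.0019, 7.2e-04, 0.001 and 2.9e-04). With the mean of its 4 kept probes in place of the brightest, the value at 12 h was -0.19 (adjusted p = 0.24, and 2.0e-04 to 0.24 over all alternatives).

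EIF1 encodes the factor that keeps the scanning ribosome from starting at the wrong codon. EIF1 had a log2 signal of 12.05, 12.11, 12.14 and 12.04 at 0 h. With MPA, EIF1 was at 12.35 and 12.40 (12 h), 12.15 and 12.29 (24 h), 12.39 and 12.49 (48 h) and 12.38 and 12.40 (72 h). All 8 treated arrays were above all 4 arrays of 0 h, although the smallest gap was narrow. Against 0 h, EIF1 gave log2 fold changes of 0.29 ± 0.10 at 12 h, 0.35 at 48 h and 0.31 at 72 h (limma adjusted p = 0.045, 0.014 and 0.03), and 0.14 at 24 h. The sign turned at 48 h (-0.05) and 72 h (-0.13) when arrays were scaled to a common median. The call at 12 h was lost when any 1 of the 12 arrays was left out (0.26 to 0.31, adjusted p = 0.052 to 0.19). That at 48 h was lost without the 48 h replicate 2 (0.30, adjusted p = 0.11), and that at 72 h without the 0 h replicate 1 or 4 or either 72 h array (0.29 to 0.31, adjusted p = 0.053 to 0.13). All 3 calls were lost with the replicate number as a block (0.29, 0.36 and 0.31, adjusted p = 0.11, 0.052 and 0.086) and with arrays scaled on the genes tested alone (0.25, 0.27 and 0.17, adjusted p = 0.088, 0.059 and 0.22).

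EIF1AD, which encodes a protein with an eIF1A-like domain, was close to background. It was detected on 3 of 4 arrays at 0 h, on none at 12, 24 and 48 h and on both at 72 h. EIF1AD had a log2 signal of 6.05, 5.0, 6.32 and 5.79 at 0 h. With MPA, EIF1AD was at 5.20 and 5.35 (12 h), 5.32 and 5.0 (24 h), 5.07 and 5.06 (48 h) and 5.90 and 5.83 (72 h). The arrays of 48 h lay within the range of 0 h, where replicate 2 was the lowest. The fall at 48 h was at least 1.14-fold against the lowest detected signal of each array (limma adjusted p = 0.044), and this call was kept in 4 of 22 alternatives (adjusted p = 6.05e-04 to 0.24). Among the arrays left out, only without the 0 h replicate 2 was it kept. The other 2 genes of this group, EIF1AX for eIF1A and its relative EIF1B, passed the test at no time, with log2 fold changes of -0.42 to -0.21 and -0.22 to 0.28. EIF1AX and EIF1AY are near-identical, but the EIF1AY probes were detected on no array and the EIF1AX probe on all 12. Whether the EIF1AX probe could also read EIF1AY cannot be seen here. A second EIF1AX probe was higher at 48 and 72 h than at 12 and 24 h (0.59, limma adjusted p = 0.037). The brightest stood at 0.05 in that comparison and did not pass.

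Among eIF2 and its alternatives, the beta subunit rose late and EIF2D rose early. EIF2S2 encodes eIF2 beta, which contacts eIF5 and eIF2B. EIF2S2 had a log2 signal of 7.51, 7.38, 7.56 and 7.66 at 0 h. With MPA, EIF2S2 was at 7.40 and 7.21 (12 h), 7.40 and 7.61 (24 h), 8.05 and 8.03 (48 h) and 8.05 and 8.09 (72 h). The arrays of 48 and 72 h were above all others, and those of 12 and 24 h overlapped with 0 h. Against 0 h, EIF2S2 gave log2 fold changes of 0.52 ± 0.12 at 48 h and 0.54 ± 0.12 at 72 h (limma adjusted p = 0.0036 and 0.0027). Both were 0.31 with arrays scaled to a common median (adjusted p = 0.19 and 0.18), the only alternative of 23 that ended these calls.

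EIF2D encodes a factor that can deliver tRNA to the ribosome without GTP. EIF2D had a log2 signal of 9.49, 9.85, 9.64 and 9.66 at 0 h. With MPA, EIF2D was at 10.09 and 10.32 (12 h), 9.97 and 10.25 (24 h), 9.59 and 9.55 (48 h) and 9.45 and 9.46 (72 h). The arrays of 12 and 24 h were above all arrays of 0 h, and those of 72 h were below them. Against 0 h, EIF2D gave log2 fold changes of 0.54 ± 0.13 at 12 h and 0.45 ± 0.13 at 24 h (limma adjusted p = 0.0067 and 0.016), and -0.09 and -0.21 at 48 and 72 h, which did not pass. The call at 12 h was lost without the 12 h replicate 2 (0.43, adjusted p = 0.09) and that at 24 h without the 24 h replicate 2 (0.31, adjusted p = 0.19). Both were lost with arrays scaled to a common median (0.54 and 0.31, adjusted p = 0.053 and 0.25).

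EIF2S1 encodes eIF2 alpha, the subunit that stress kinases phosphorylate. EIF2S1 had a log2 signal of 7.61, 7.72, 7.92 and 7.65 at 0 h, then 7.88 and 7.59 (12 h) and 7.44 and 7.67 (24 h). After that EIF2S1 was at 7.84 and 7.97 (48 h) and 7.95 and 8.06 (72 h). At 72 h alone both arrays lay above all arrays of 0 h, and the log2 fold change passed the test at no time (0.01, -0.16, 0.18 and 0.28). The gamma subunit EIF2S3 and EIF2A also passed at no time, with log2 fold changes of -0.12 to 0.11 and -0.14 to 0.24. The 3 subunits of eIF2 thus had log2 fold changes of 0.28, 0.54 and -0.04 at 72 h.

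Of eIF2B, 4 of its genes were measured and 2 of them fell at some time, beside 37.7% of all genes. EIF2B5 encodes the epsilon subunit, which carries out the nucleotide exchange. EIF2B5 had a log2 signal of 9.43, 9.52, 9.59 and 9.41 at 0 h. With MPA, EIF2B5 was at 8.98 and 8.60 (12 h), 8.72 and 9.10 (24 h), 8.94 and 8.93 (48 h) and 9.33 and 9.20 (72 h). Every treated array was below every array of 0 h, with the smallest distance at 72 h. Against 0 h, EIF2B5 gave log2 fold changes of -0.70 ± 0.14 at 12 h, -0.58 at 24 h and -0.55 at 48 h (limma adjusted p = 0.0022, 0.0056 and 0.0068), and -0.23 at 72 h, which did not pass. The call at 24 h was lost without the 24 h replicate 1 (-0.39, adjusted p = 0.11).

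EIF2B4, for the delta subunit, had a log2 signal of 12.15, 12.06, 12.38 and 12.27 at 0 h. With MPA, EIF2B4 was at 11.77 and 12.07 (12 h), 11.81 and 11.94 (24 h), 11.92 and 11.94 (48 h) and 11.92 and 11.89 (72 h). The arrays of 24, 48 and 72 h were below all arrays of 0 h, while 1 array of 12 h was within their range. Against 0 h, EIF2B4 gave log2 fold changes of -0.34 ± 0.12 at 24 h (limma adjusted p = 0.047) and -0.29, -0.29 and -0.31 at the other times, which did not pass. The call at 24 h was lost in 12 of 23 alternatives (adjusted p = 0.018 to 0.26 over all of them), among them leaving out the 0 h replicate 1, 3 or 4 or any 1 array of 24, 48 or 72 h (-0.40 to -0.27). EIF2B1 and EIF2B2, for the alpha and beta subunits, passed at no time against 0 h, with log2 fold changes of -0.25 to 0.23 and -0.09 to 0.12.

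All 13 measured genes of eIF3, the scaffold that keeps the subunits apart and holds the mRNA to the ribosome, were detected on all arrays. None of the 13 rose at any time, beside 16.4%, 20.4%, 20.7% and 21% of all genes higher at 12, 24, 48 and 72 h. At these times 4, 5, 3 and 4 of the 13 genes fell. These are 30.8%, 38.5%, 23.1% and 30.8%, beside 17.9%, 21.3%, 22.8% and 21.4% of all genes lower. The share at 48 h was close to that of all genes. The median log2 fold change of the 13 genes was -0.10, -0.21, -0.26 and -0.30, against -0.01, -0.03, -0.04 and -0.02 for all genes. EIF3C encodes a core subunit of the complex. EIF3C had the lowest log2 signal of the eIF3 genes, with 7.19, 7.34, 7.32 and 7.0 at 0 h. With MPA, EIF3C was at 6.86 and 6.89 (12 h), 6.33 and 6.38 (24 h), 6.47 and 6.48 (48 h) and 6.40 and 6.39 (72 h). Every treated array was below every array of 0 h, and those of 24 to 72 h were also below those of 12 h. Against 0 h, EIF3C gave log2 fold changes of -0.33 ± 0.12 at 12 h, -0.85 at 24 h, -0.74 at 48 h and -0.81 at 72 h (limma adjusted p = 0.044, 9.1e-05, 2.9e-04 and 1.6e-04). The call at 12 h was kept in 5 of 23 alternatives (-0.40 to -0.21, adjusted p = 0.015 to 0.42) and was lost when any 1 array other than the 0 h replicate 4 was left out. EIF3C has a near-identical copy, EIF3CL, and its probe may measure both.

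EIF3A encodes the largest subunit, on which the complex is built. EIF3A had a log2 signal of 10.56, 10.40, 10.80 and 10.51 at 0 h. With MPA, EIF3A was at 9.81 and 9.60 (12 h), 9.91 and 9.80 (24 h), 10.27 and 10.26 (48 h) and 10.35 and 10.36 (72 h). All treated arrays were below those of 0 h, but the arrays of 48 and 72 h lay only just below. Against 0 h, EIF3A gave log2 fold changes of -0.86 ± 0.13 at 12 h and -0.71 ± 0.13 at 24 h (limma adjusted p = 2.5e-04 and 6.6e-04), the largest fall of any initiation factor gene at 12 h. At 48 and 72 h it was -0.30 and -0.21, which did not pass.

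EIF3L, a peripheral subunit, had a log2 signal of 12.58, 12.50, 12.71 and 12.78 at 0 h, then 12.69 and 12.66 (12 h). After that EIF3L was at 12.31 and 12.36 (24 h), 12.26 and 12.51 (48 h) and 12.27 and 12.14 (72 h). The arrays of 24 and 72 h were below all arrays of 0 h. The fold change passed at 72 h (log2 -0.44 ± 0.12, limma adjusted p = 0.011), and that call was lost without the 72 h replicate 2 (-0.37, adjusted p = 0.098) and with the replicate number as a block (-0.34, adjusted p = 0.096).

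Of the other eIF3 genes, EIF3B and EIF3G fell at 12 and 24 h, EIF3E at 24 h, EIF3I at 48 and 72 h, EIF3J at 48 h and EIF3F at 72 h (log2 fold changes of -0.43 to -0.32). The fall of EIF3B is that of its brightest probe. Its other 2 kept probes stood at -0.32 and -0.26 at 12 h and -0.42 and -0.68 at 24 h. They did not pass there (limma adjusted p = 0.17 and 0.50, then 0.065 and 0.062). EIF3D, EIF3H, EIF3K and EIF3M passed the test at no time against 0 h, with log2 fold changes between -0.34 and 0.26. The subunits did not share 1 time course. Over the 5 group means, the correlation between 2 eIF3 genes had a median of 0.26 and ranged from -0.88 to 0.96 over 78 pairs, 50 of them above 0. These are descriptions over 5 means from the same 12 arrays, and the genes are not independent.

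**Figure D3:**
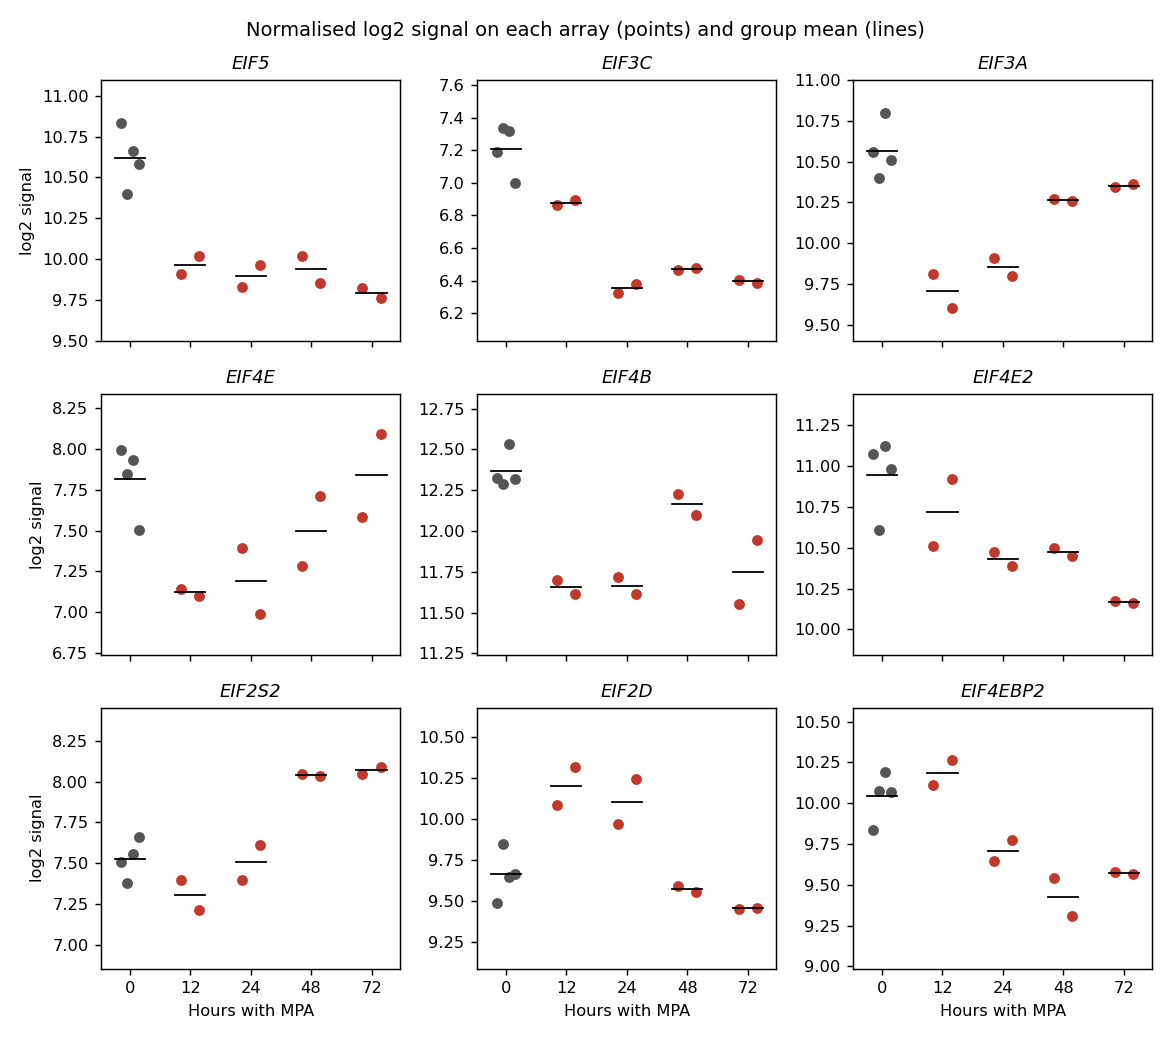
Normalised log2 signal (y axes, which differ between panels and do not start at 0) of 9 initiation factor genes on each array (grey points 0 h, red points MPA) against hours with MPA, with group means as lines (n = 4 at 0 h, n = 2 at each later time). EIF5 and EIF3C stay below 0 h at all times, EIF3A and EIF4E are lowest at 12 and 24 h, EIF2S2 is highest at 48 and 72 h and EIF2D at 12 and 24 h.

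Of the 10 measured genes for cap binding, the eIF4G scaffolds and the helicase with its helpers, 6 fell at some time and 1, EIF4E3, rose. Among all genes tested, 37.7% fell at some time and 33.9% rose. EIF4E encodes the cap-binding protein. EIF4E had a log2 signal of 7.99, 7.85, 7.93 and 7.50 at 0 h. With MPA, EIF4E was at 7.14 and 7.10 (12 h), 7.39 and 6.99 (24 h), 7.29 and 7.71 (48 h) and 7.59 and 8.09 (72 h). The arrays of 12 and 24 h were below all arrays of 0 h, and at 72 h one array was above them all. Against 0 h, EIF4E gave log2 fold changes of -0.70 ± 0.19 at 12 h and -0.63 ± 0.19 at 24 h (limma adjusted p = 0.013 and 0.018), and -0.32 and 0.02 at 48 and 72 h, which did not pass. The call at 12 h was lost without either 12 h array (-0.72 and -0.67, adjusted p = 0.061 and 0.083) and with arrays scaled to a common median (-0.64, adjusted p = 0.06). That at 24 h was lost without the 24 h replicate 2 (-0.43, adjusted p = 0.21).

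EIF4E2 encodes a relative of eIF4E that binds the cap but not eIF4G and represses translation. EIF4E2 had a log2 signal of 11.07, 10.61, 11.12 and 10.98 at 0 h. With MPA, EIF4E2 was at 10.51 and 10.92 (12 h), 10.47 and 10.39 (24 h), 10.50 and 10.45 (48 h) and 10.17 and 10.16 (72 h). From 24 h on every treated array was below every array of 0 h. Against 0 h, EIF4E2 gave log2 fold changes of -0.52 ± 0.15 at 24 h, -0.48 at 48 h and -0.78 at 72 h (limma adjusted p = 0.018, 0.025 and 0.0016). The call at 24 h was lost without either 24 h array (-0.56 and -0.47, adjusted p = 0.067 and 0.12) and that at 48 h without the 0 h replicate 1 or 3 or either 48 h array (-0.50 to -0.42, adjusted p = 0.052 to 0.12). Both were lost with the replicate number as a block (-0.41 and -0.37, adjusted p = 0.12 and 0.16).

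EIF4E3, another cap-binding relative, is described after its values were seen. EIF4E3 had a log2 signal of 8.57, 8.81, 8.40 and 8.51 at 0 h. With MPA, EIF4E3 was at 8.91 and 8.93 (12 h), 9.20 and 9.20 (24 h), 9.10 and 8.69 (48 h) and 9.13 and 9.41 (72 h). All treated arrays except the 48 h replicate 2 were above those of 0 h. Against 0 h, EIF4E3 gave log2 fold changes of 0.63 ± 0.15 at 24 h and 0.70 ± 0.15 at 72 h (limma adjusted p = 0.0047 and 0.0025), but with arrays scaled to a common median no initiation factor gene was called higher at any time. With arrays scaled on the genes tested alone, 2 and 3 initiation factor genes were called higher at 24 and 72 h. A second probe gave 0.59, 0.70 and 0.77 at 24, 48 and 72 h, all past the threshold in the fit over 13772 probes.

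EIF4B encodes a helper of the eIF4A helicase. EIF4B had a log2 signal of 12.33, 12.29, 12.53 and 12.32 at 0 h. With MPA, EIF4B was at 11.70 and 11.62 (12 h), 11.72 and 11.61 (24 h), 12.23 and 12.10 (48 h) and 11.55 and 11.94 (72 h). Every treated array was below every array of 0 h, by the least at 48 h. Against 0 h, EIF4B gave log2 fold changes of -0.71 ± 0.13 at 12 h, -0.70 at 24 h and -0.62 at 72 h (limma adjusted p = 0.0012, 9.7e-04 and 0.0023), and -0.20 at 48 h, which did not pass. The value at 72 h was -0.42 (adjusted p = 0.05, just above the threshold) without the 72 h replicate 1.

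EIF4G1, the main scaffold of the cap complex, is also described after its values were seen, as one of the 3 genes that fell at all times. EIF4G1 had a log2 signal of 11.97, 12.17, 12.00 and 12.21 at 0 h and between 11.52 and 11.73 on the 8 treated arrays, which did not overlap with 0 h. Against 0 h, EIF4G1 gave log2 fold changes of -0.42 ± 0.11, -0.43, -0.53 and -0.52 at the 4 times (limma adjusted p = 0.011, 0.0089, 0.0023 and 0.0026). This is the brighter of its 2 kept probes, and the other stood at -0.08 at 12 h and -0.55 at 48 h, which did not pass (adjusted p = 0.82 and 0.057), and fell at 24 and 72 h (-0.63 and -0.59). Of the remaining genes, EIF4A1, a helicase of the complex, fell at 48 and 72 h (-0.45 and -0.48). EIF4G2, which encodes an eIF4G relative that does not bind eIF4E, fell at 48 h (-0.39) by its brightest probe. Its other kept probes stood at -0.22 and -0.05 there and did not pass (limma adjusted p = 0.42 and 0.84). EIF4A2, EIF4H and EIF4A3, the last a helicase of the exon junction complex, passed at no time against 0 h, with log2 fold changes between -0.23 and 0.16.

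Of the 4 eIF4E-binding proteins measured, 2 fell and none rose, beside 37.7% of all genes lower and 33.9% higher at some time. EIF4EBP2 encodes a repressor that releases eIF4E once mTOR has phosphorylated it. EIF4EBP2 had a log2 signal of 9.84, 10.08, 10.19 and 10.07 at 0 h, then 10.11 and 10.26 (12 h). After that EIF4EBP2 was at 9.65 and 9.77 (24 h), 9.54 and 9.31 (48 h) and 9.58 and 9.56 (72 h). From 24 h on all arrays were below those of 0 h. Against 0 h, EIF4EBP2 gave log2 fold changes of -0.33 ± 0.13 at 24 h, -0.62 at 48 h and -0.47 at 72 h (limma adjusted p = 0.0497, 0.0017 and 0.0094). The call at 24 h was kept in 10 of 23 alternatives (-0.46 to -0.25, adjusted p = 0.021 to 0.26), and it was lost when any 1 array was left out except the 0 h replicate 1 and the 48 h arrays. That at 72 h was lost without either 72 h array (-0.48 and -0.47, adjusted p = 0.05 and 0.058) and with the replicate number as a block (-0.38, adjusted p = 0.0755).

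EIF4EBP3, for another repressor of the family, had a low log2 signal of 6.30, 6.55, 6.57 and 6.53 at 0 h. With MPA, EIF4EBP3 was at 6.70 and 6.79 (12 h), 6.33 and 6.21 (24 h), 5.73 and 6.20 (48 h) and 6.30 and 6.13 (72 h). Both arrays of 12 h were above 0 h and both arrays of 48 h below it. Against 0 h, EIF4EBP3 gave a log2 fold change of -0.52 ± 0.14 at 48 h (limma adjusted p = 0.01). It was -0.29 (adjusted p = 0.18) without the 48 h replicate 1, -0.46 (adjusted p = 0.066) with the replicate number as a block and -0.30 (adjusted p = 0.105) with arrays scaled on the genes tested alone. The gene overlaps with a read-through transcript of its neighbour, ANKHD1-EIF4EBP3, which the probe may also measure. EIF4EBP1, the best known of the family, and EIF4ENIF1, which encodes a carrier of eIF4E into the nucleus, passed at no time, with log2 fold changes of -0.28 to 0.17 and -0.32 to -0.05.

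Of the factors for subunit joining and later steps, EIF5A fell and EIF5B and EIF6 passed at no time. EIF5A encodes a protein that carries the amino acid hypusine and acts in elongation and termination despite its name. EIF5A had a log2 signal of 9.75, 9.91, 9.95 and 9.96 at 0 h, then 9.84 and 10.05 (12 h). After that EIF5A was at 9.45 and 9.63 (24 h), 9.62 and 9.49 (48 h) and 9.43 and 9.56 (72 h). From 24 h on all arrays were below those of 0 h. Against 0 h, EIF5A gave log2 fold changes of -0.35 ± 0.12 at 24 h, -0.34 at 48 h and -0.39 at 72 h (limma adjusted p = 0.031, 0.035 and 0.017). The calls at 24 and 48 h were both lost without the 0 h replicate 2, 3 or 4 or an array of the same time (adjusted p = 0.058 to 0.24), and that at 72 h without the 72 h replicate 1 (-0.33, adjusted p = 0.13). All 3 were lost with the replicate number as a block (adjusted p = 0.14, 0.15 and 0.094). EIF5A has a near-identical copy, EIF5AL1, whose own probe was not kept.

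EIF5B encodes the GTPase that joins the large subunit. EIF5B had a log2 signal of 9.92, 9.74, 9.94 and 9.55 at 0 h, then 9.53 and 9.74 (12 h) and 9.64 and 9.35 (24 h). After that EIF5B was at 9.79 and 9.71 (48 h) and 9.85 and 9.80 (72 h). The arrays of every treated group overlapped with 0 h, and the log2 fold change was -0.15, -0.29, -0.04 and 0.04. EIF6, which keeps free large subunits from joining too early, had log2 fold changes between -0.19 and 0.04.

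To ask whether early and late treatment differed, the mean of 48 and 72 h was compared with the mean of 12 and 24 h. Of the 44 genes 6 were higher late and 8 were lower late (13.6% and 18.2%), and over all genes 19.6% were higher and 19% lower. EIF2S2 (0.65 ± 0.10, limma adjusted p = 3.0e-04) and EIF3A (0.53 ± 0.10, adjusted p = 0.0018) were the 2 largest of the higher genes. The 4 late arrays of EIF2S2 lay at 8.03 to 8.09 and the 4 early ones at 7.21 to 7.61. Those of EIF3A lay at 10.26 to 10.36 and 9.60 to 9.91. Neither gene's early and late arrays overlapped, and the value for EIF3A was 0.24 (adjusted p = 0.27) with arrays scaled to a common median.

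EIF4E was also higher late (0.51 ± 0.15, limma adjusted p = 0.02), but its late arrays (7.29 to 8.09) overlapped with the early ones (6.99 to 7.39). This call was lost without the 12 h, 24 h, 48 h or 72 h replicate 2 (0.39 to 0.50, adjusted p = 0.054 to 0.086) and with arrays scaled to a common median (0.30, adjusted p = 0.24). EIF2S1 was higher late by 0.31 ± 0.11 (adjusted p = 0.038), a call lost in 10 of 23 alternatives (0.08 to 0.38, adjusted p = 0.024 to 0.73), among them leaving out the 0 h, 12 h, 48 h or 72 h replicate 2 or the 24 h, 48 h or 72 h replicate 1. EIF4B was higher late by 0.29 ± 0.11 (adjusted p = 0.044), with -0.03 when arrays were scaled to a common median. It kept the call in 8 of 23 alternatives (adjusted p = 0.015 to 0.91), and among arrays left out only without the 0 h replicate 3 or the 72 h replicate 1. The sixth gene, EIF3B, was higher by 0.29 with its brightest probe, while its other 2 kept probes stood at -0.17 and -0.28 and did not pass (adjusted p = 0.36 and 0.33).

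EIF2D was lower late by the most (-0.64 ± 0.11, limma adjusted p = 6.6e-04), with 9.45 to 9.59 on the late arrays and 9.97 to 10.32 on the early ones. EIF4EBP2 was lower by 0.45 ± 0.10 (adjusted p = 0.0047), with 9.31 to 9.58 late and 9.65 to 10.26 early. In both genes the early and late arrays did not overlap, and both calls were kept in all 23 alternatives. EIF4EBP3 was lower by 0.41 ± 0.12 (adjusted p = 0.014), with 5.73 to 6.30 late and 6.21 to 6.79 early, which overlapped. That call was lost without the 48 h replicate 1 (-0.30, adjusted p = 0.057) or the 72 h replicate 2 (-0.37, adjusted p = 0.051). EIF2B1, EIF3F, EIF3I, EIF3K and EIF4A3 were the other 5, with log2 differences of -0.39 to -0.27.

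**Figure D4:**
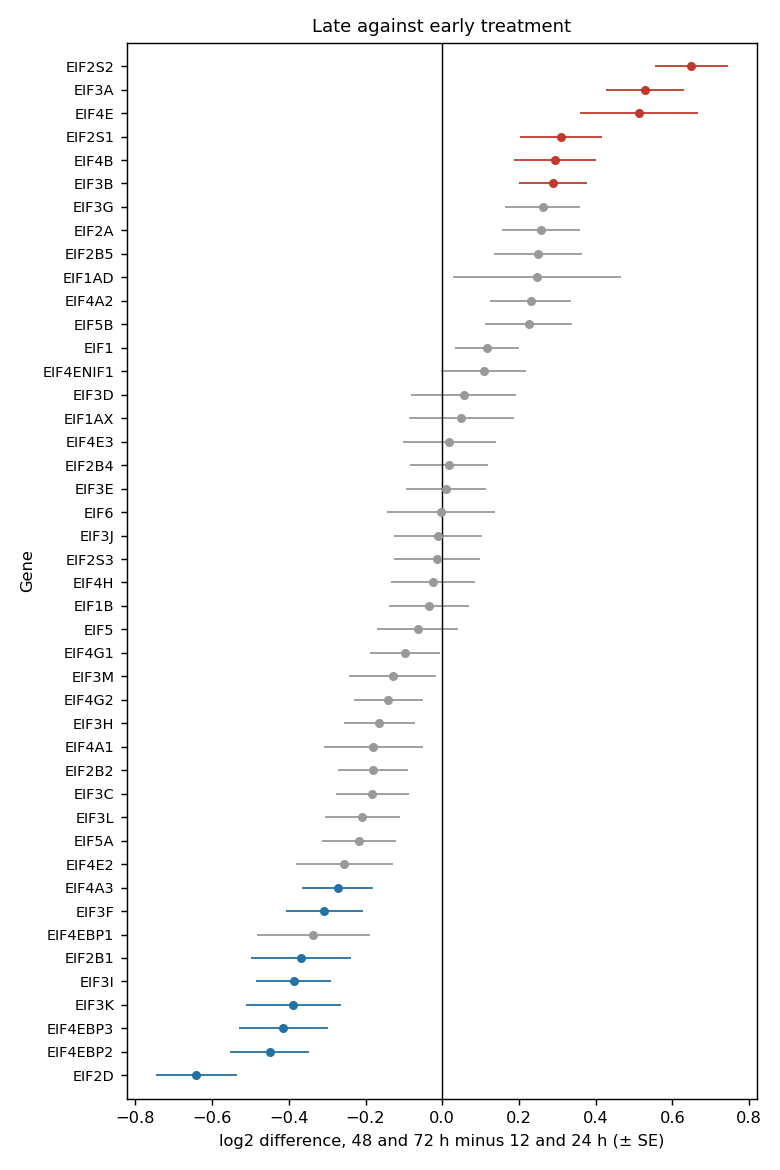
Log2 difference of the mean of 48 and 72 h minus the mean of 12 and 24 h (points, bars ± SE of the limma fit) for the 44 initiation factor genes, ordered by size (red higher and blue lower at adjusted p under 0.05, grey not called). Values run from -0.64 for EIF2D to 0.65 for EIF2S2, and EIF4B changes sign (-0.03) when arrays are scaled to a common median.

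Among the 9 genes with over 1 kept probe, no gene had probes called in opposite directions at the same time. Probes of a gene are not replicates of a condition, and they can read different transcript forms. For EIF5, the second brightest of the other probes (mean log2 signal 6.01) fell at 12, 24 and 48 h (-0.52, -0.57 and -0.66), the brightest of them (6.65) fell at 24 h (-0.43), and the third, detected on 5 arrays, passed at no time. For EIF3B, the brightest probe stood at 0.11 at 72 h, whereas the other 2 probes fell there (-0.65 and -0.79, limma adjusted p = 0.0081 and 0.033). For EIF3M, the second probe fell at 12 h (-0.42, adjusted p = 0.031) where the brightest stood at -0.10.

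**Figure D5:**
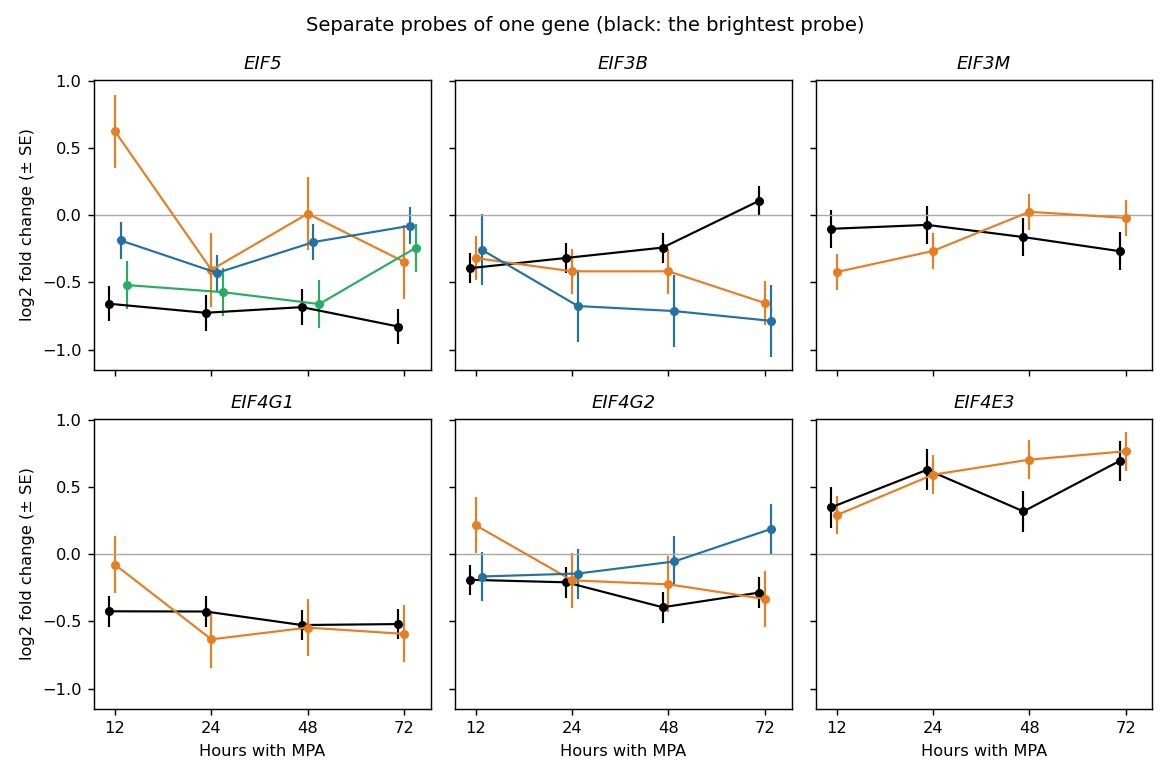
Log2 fold change from 0 h (± SE of the limma fit over 13772 probes) of each kept probe of 6 genes at 12, 24, 48 and 72 h with MPA, with the brightest probe in black. The 2 EIF4E3 probes lie above 0 and the 2 EIF4G1 probes below 0 at all times (one of them at -0.08 at 12 h), and the 3 EIF3B probes part at 72 h, at 0.11, -0.65 and -0.79.

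Set against the promoter sequences above, 5 of the 9 genes with an E-box fell at some time, 0 rose and 4 passed at no time. Of the 28 without one, 13 fell, 3 rose and 12 passed at no time, and over all genes 37.7% fell and 33.9% rose at some time. The median log2 fold change of the 9 genes with an E-box was -0.03, -0.15, -0.26 and -0.27 at the 4 times, and that of the others was -0.13, -0.20, -0.20 and -0.19. Of the 9 genes with a pyrimidine start, 2 fell (EIF3F and EIF4B), 1 rose (EIF2D) and 6 passed at no time, and of the 28 without, 16 fell, 2 rose and 10 passed at no time. The median log2 fold change of the 9 genes with a pyrimidine start was 0.08, -0.12, -0.09 and -0.21 at 12, 24, 48 and 72 h, and that of the others was -0.17, -0.21, -0.30 and -0.22. These are descriptions of few genes without a test, and a match of letters is not a bound or regulated site.

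Genes that act around the initiation factors were counted in the same fit, in which 16.4%, 20.4%, 20.7% and 21% of all genes rose and 17.9%, 21.3%, 22.8% and 21.4% fell at the 4 times. In such short lists a count of 2 among 9 genes is close to these shares. The alternative settings were not examined for the genes of these lists. How far their calls depend on the scaling or on single arrays was not tested. Of 9 genes for the eIF2 alpha kinases and phosphatase, 1, 2, 2 and 3 rose and 0, 1, 1 and 1 fell at 12, 24, 48 and 72 h. PPP1R15A (GADD34), which brings the phosphatase to eIF2 alpha, rose at every time (log2 0.50, 1.07, 0.67 and 0.75, SE 0.12, limma adjusted p = 1.3e-05 at 24 h). EIF2AK4 (GCN2), the kinase that senses uncharged tRNA, rose from 24 h on (0.56, 0.84 and 0.70, SE 0.13). PPP1CA, a catalytic subunit of the phosphatase, fell from 24 h on (-0.33, -0.84 and -0.84, SE 0.12).

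Of 16 measured genes of other initiation and cap-complex factors, 3, 3, 2 and 2 rose and 6, 6, 4 and 3 fell. MKNK2, a kinase of eIF4E, rose at 12, 24 and 48 h (0.75, 1.00 and 0.56, SE 0.15), and PDCD4, an inhibitor of eIF4A, rose at every time (0.43, 0.51, 0.83 and 0.61, SE 0.13). PABPC4, a poly(A)-binding protein, fell at every time (-0.53, -0.85, -0.73 and -0.77, SE 0.14). Of 9 elongation and termination genes, none rose and 3, 3, 5 and 2 fell. EEF2K, the kinase that inhibits eEF2, fell at 12, 24 and 48 h (-1.01, -1.06 and -0.54, SE 0.11), and EEF1G and EEF1D, subunits of the exchange factor of eEF1A, fell at 48 and 72 h (-0.59 and -0.62 for EEF1G, -0.60 and -0.62 for EEF1D).

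Both enzymes that make hypusine on eIF5A fell at some time, beside 37.7% of all genes. DOHH, which finishes the residue, fell from 24 h on (-0.83, -0.58 and -0.77, SE 0.17), and DHPS, which starts it, fell at 72 h (-0.54 ± 0.12). EIF5A itself stood at -0.35, -0.34 and -0.39 over the same times.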

How the data were processed

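Illumina HumanHT-12 arrays of 12 AGS samples were analysed, 4 at 0 h and 2 each at 12, 24, 48 and 72 h with MPA. The authors name version 4 of the array, while the annotation table used here is that of the probe identifiers in the files. The deposited intensity values are mean bead signals of 48803 probes, not normalised, and the deposited detection score is 1 minus the detection p. The log2 values that the authors deposited come from lumi, whose settings no source used here gives, and served as an alternative. No source used here gives the scanner software, the chip or a batch.

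Intensities were background-corrected by normexp with inferred negative controls and an offset of 16, put on the log2 scale and quantile normalised (R 4.3.3, limma 3.58.1, statmod 1.5.0). Only the 28098 probes with 1 gene were used (13 name several and 20692 none), and 28059 symbols were updated through the gene identifier. A 5-group model was fitted with limma to all 12 arrays without covariates. The precision is limited by the number of arrays. Alternatives were the authors' log2 values, no background correction, an offset of 50, other scalings, other filters on dim probes, array weights, the mean over the probes of each gene, fits of only the groups compared, the replicate number as a block and each array left out.

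The members and lists were chosen with earlier results of these data known. Values on every array are given for the 3 members of each role group with the largest change past the threshold, and for EIF4E, EIF2S1 and EIF5B. In each list of other genes the 3 with the largest change past the threshold are named. For a probe detected on no array of a group, the fold is given as a bound, set by the lowest signal detected on each array.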

Additional observations from a re-analysis of the deposited data

Results flagged for a closer look

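Of 18 sets of 4 arrays at 0 h checked, 2 had an array far from the other 3, where chance would give about 1 in 20. EIF4B had 12.53 on the 0 h replicate 3, above the other arrays of its group, and EIF4EBP3 had 6.30 on the 0 h replicate 1, below them.

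Signals differed between early and late treatment, by limma's test of the difference itself, in 8 of the 18 genes given on every array. This comparison cannot tell time with the drug from time in culture. These 18 were picked mostly for large changes, and over all genes 19.6% were higher late and 19% lower, so the count is read as no more than a list. EIF2S2 (0.65), EIF3A (0.53), EIF4E (0.51), EIF2S1 (0.31) and EIF4B (0.29, but -0.03 with arrays scaled to a common median) were higher at 48 and 72 h than at 12 and 24 h on the log2 scale. EIF2D (-0.64), EIF4EBP2 (-0.45) and EIF4EBP3 (-0.41) were lower. Of 23 alternatives, 10 ended the call for EIF2S1, 5 that for EIF4E, 2 that for EIF4EBP3 and 1 that for EIF3A, and that for EIF4B was kept in 8.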

How the results depend on the processing

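The 44 genes gave 11, 16, 15, 14 and 14 calls at 12, 24, 48 and 72 h and late against early. With arrays scaled to a common median there were 4, 12, 26, 27 and 19 (1 higher and 18 lower late against early), and the median of all genes late against early was -0.24. EIF4B late against early (-0.0286) and EIF1 at 48 h (-0.0477) and 72 h (-0.13) then changed sign. With arrays scaled on the genes tested alone, an alternative chosen after seeing the data, there were 10, 17, 17, 21 and 14. With the replicate number as a block there were 8, 9, 8, 8 and 11. The labels do not say whether the numbers pair the samples. The 20 correlations of same-numbered deviations ran from -0.19 to 0.27 (median -0.02). Between groups of 2 arrays the deviations mirror each other, so both numbers give the same value. These correlations therefore cannot show that pairing is absent. With each array left out in turn the counts ran from 5 to 10, 8 to 17, 9 to 15, 9 to 15 and 5 to 14. Either array of 12 h (7 without replicate 1, 5 without replicate 2), of 24 h (9 and 8) and of 48 h (9 and 9), and the 72 h replicate 1 (9), moved the count of their own time by over 1.5 times. Late against early, so did the 12 h replicate 2 (9), the 24 h replicate 1 (9), the 48 h replicates 1 (6) and 2 (9) and the 72 h replicate 2 (5). The other settings moved no count by over 1.5 times. No gene was carried under an older EIF symbol for an Argonaute protein, so leaving those out was not run. Over the 46 calls of the named genes, 886 of 1057 values under an alternative kept the call, 168 lost it and 3 changed sign. The cause was not tested. At 2 arrays a time, calls near the threshold rest on single arrays, and EIF1AD was too dim for more than a bound.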
